A study of Mus musculus with 10 samples.

Results

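Variable (V) gene segments are the coding blocks from which antibody and T cell receptor genes are assembled, and 19 of them, out of 23152 genes on the arrays, are described here. They were taken by symbol: every gene named Ighv (immunoglobulin heavy chain), Igkv (kappa light chain), Iglv (lambda light chain), Trav, Trbv, Trgv or Trdv (T cell receptor alpha, beta, gamma and delta chain) that had at least 1 probe set annotated to it alone. The 19 segments rested on 38 of 269751 probe sets, a probe set being a group of short array sequences read as 1 value. Kappa contributed 10 segments on 12 probe sets and the alpha chain 5 segments on 22, while the heavy chain had 2 segments, lambda 1 and the beta chain 1. No Trgv or Trdv symbol met the rule.

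Total RNA came from 4 sorted progenitor populations of adult C57BL/6 mouse bone marrow, with no genetic change or treatment given in the labels. Ly6D+ and Ly6D− common lymphoid progenitors (CLPs, n = 2 arrays each) were gated from cells without lineage markers as cKit low, Sca-1 low, Flt3 high and CD127-positive. CD127+ and CD127− lymphoid-primed multipotent progenitors (LMPPs, n = 3 arrays each) were gated from the same marrow fraction as cKit high, Sca-1 high and Flt3 high. The study divided LMPPs by CD127, the interleukin 7 receptor alpha chain, and compared them with CLPs. The labels do not say that replicates came from separate animals or sorts, so each p-value here reflects the scatter among these arrays, which may be technical. CLP and LMPP samples carry separate runs of sample numbers, and whether they were processed together is not known here. A batch difference between CLPs and LMPPs therefore cannot be told apart from a difference of population.

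In a cell that has not yet rearranged a receptor locus, each V segment lies apart from the joining and constant segments. The RAG1 and RAG2 enzymes later cut the DNA so that a V segment can be joined to the rest. Before that step many V segments are transcribed in their unrearranged form, which is called germline transcription and is known to accompany the opening of a locus for recombination. A probe set inside a V segment reads germline and rearranged transcripts alike, so these arrays do not separate them.

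Most of the V segments gave a signal no higher than that of genes for smell and taste receptors, a reference for low signal in marrow. The 1422 sensory receptor genes had a median of 2.55 on the deposited scale, read as log2, and their 95th percentile of 4.46 served as the low-signal limit. Only 5 of the 19 segments had a group mean over that limit in at least 1 population, and 14 had none. Over all genes, 57% passed it in at least 1 population. The 5 were Trav12-2, Igkv15-103, Trav9d-3, Iglv1 and Ighv1-72, and Trav12-2, Igkv15-103 and Trav9d-3 passed it in all 4 populations. Trav9d-3 passed only narrowly in CD127− LMPPs, with a mean of 4.47. The same percentile over single probe sets of sensory receptor genes was 5.04. Igkv15-103, Iglv1 and Ighv1-72 rest on 1 probe set each. Igkv15-103 passed 5.04 on 6 arrays and in the mean of CD127+ LMPPs alone (5.16 log2 units). Ighv1-72 passed 5.04 on 1 array and Iglv1 on none. The dimmest segments were Igkv9-124, Ighv1-47, Igkv9-120, Igkv6-23, Trav3-4 and Igkv4-59, with means over 10 arrays of 1.42, 1.52, 1.75, 1.76, 1.76 and 1.91 log2 units. No single array held many bright segments: the number over the limit of 4.46 ran between 3 and 5 on every array. Fewer cells with a transcript and less transcript per cell cannot be told apart in such bulk samples.

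**Figure D1:**
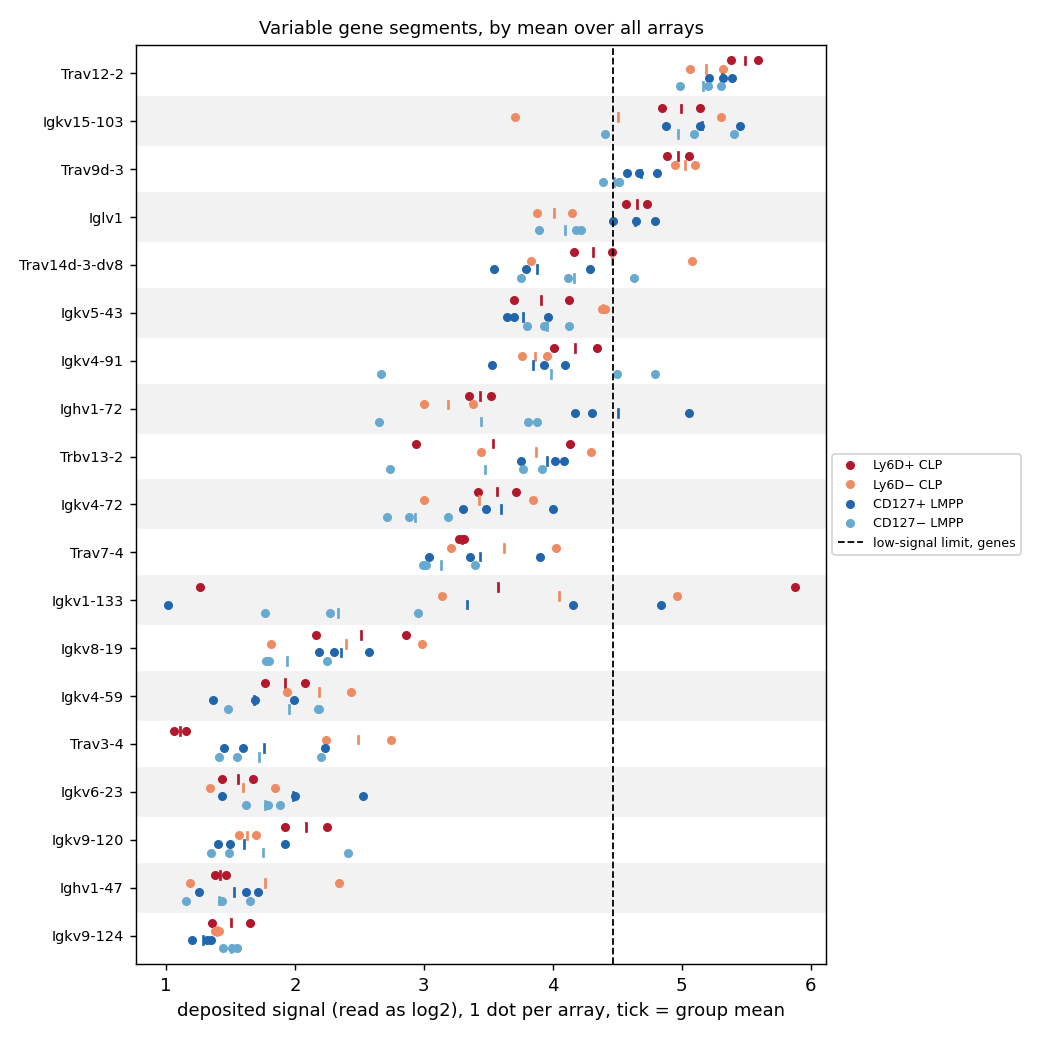
Signal of the 19 variable gene segments on each of the 10 arrays (x axis, deposited signal read as log2; 1 dot per array, tick at the group mean), with Ly6D+ CLPs, Ly6D− CLPs, CD127+ LMPPs and CD127− LMPPs from top to bottom within each segment. The dashed line is the low-signal limit of 4.46, and 14 segments have all 4 group means to its left.

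No V segment passed limma's test in any of the 4 comparisons made (0 of 19 in each, Benjamini-Hochberg adjustment over all 23152 genes at 0.05). CLPs were not tested against CD127− LMPPs. The share of all genes called was 1.47% between CD127+ and CD127− LMPPs, 2.06% between Ly6D− CLPs and CD127+ LMPPs, 4.03% between Ly6D+ CLPs and CD127+ LMPPs and 0.0993% between Ly6D+ and Ly6D− CLPs. At an unadjusted p under 0.05 the segments numbered 3, 5, 2 and 3 in the same order of comparisons, which is 15.8%, 26.3%, 10.5% and 15.8% of 19, against 11.1%, 18%, 19.1% and 9.1% of all genes. The smallest adjusted p of a segment was 0.15, 0.0851, 0.126 and 0.178 in these comparisons. The median log2 difference of the 19 segments was 0.19 in CD127+ against CD127− LMPPs, where 13 of 19 were positive, beside a median of -0.01 over all genes. It was 0.04 in Ly6D− CLPs against CD127+ LMPPs, 0.14 in Ly6D+ CLPs against CD127+ LMPPs and -0.04 in Ly6D+ against Ly6D− CLPs. These comparisons share arrays, so they are not independent of one another.

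**Figure D2:**
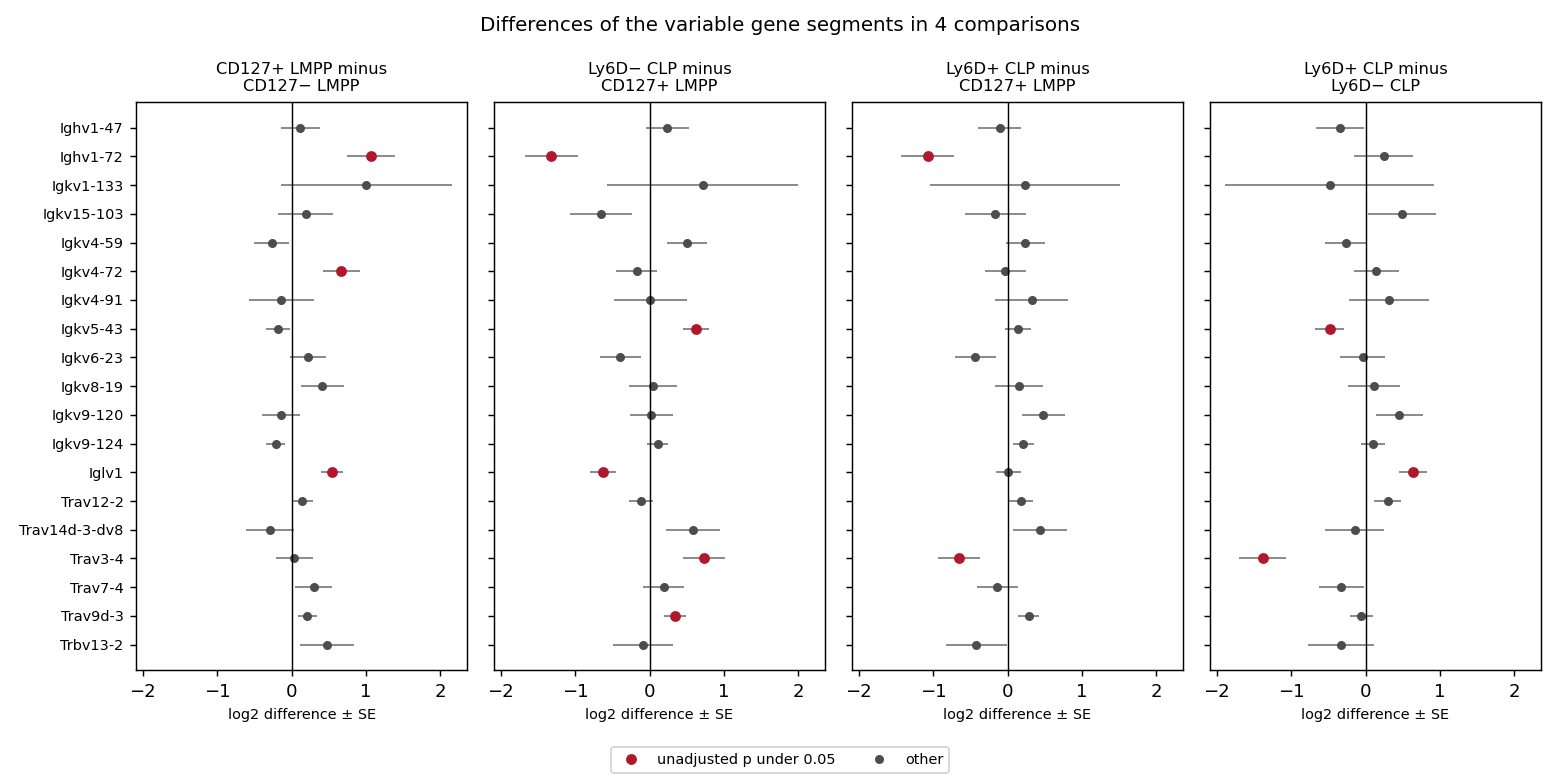
Log2 difference (x axis, with its standard error as a bar) of each of the 19 segments in 4 comparisons, the first-named population minus the second. Red dots mark an unadjusted p under 0.05, which 3, 5, 2 and 3 segments have in the panels from left to right, and no segment passes after adjustment.

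Iglv1, a V segment of the small mouse lambda locus, was the 1 segment of 19 called when the 4 populations were tested together for any difference (limma's moderated F of 8.24, adjusted p = 0.0439), a test that called 9.38% of all genes. It read 4.57 and 4.73 log2 units in Ly6D+ CLPs, 3.88 and 4.15 in Ly6D− CLPs, 4.47, 4.79 and 4.65 in CD127+ LMPPs, and 4.18, 3.89 and 4.22 in CD127− LMPPs. All 5 arrays of Ly6D+ CLPs and CD127+ LMPPs lay over the low-signal limit for genes, 4.46. All 5 arrays of Ly6D− CLPs and CD127− LMPPs lay under it, with no overlap. The segment rests on 1 probe set, however, and no array passed the limit of 5.04 for single probe sets. The log2 difference was 0.64 ± 0.19 (SE) in Ly6D+ against Ly6D− CLPs (limma adjusted p = 0.329) and 0.54 ± 0.15 in CD127+ against CD127− LMPPs (limma adjusted p = 0.15). It was -0.62 ± 0.17 in Ly6D− CLPs against CD127+ LMPPs (limma adjusted p = 0.0851) and 0.01 ± 0.17 in Ly6D+ CLPs against CD127+ LMPPs (limma adjusted p = 0.982). The joint call was lost without any 1 of 9 arrays, with adjusted p between 0.0558 without CD127+ LMPP replicate 1 and 0.111 without Ly6D+ CLP replicate 2, and it held without Ly6D− CLP replicate 2 (adjusted p = 0.0494). It was also lost with the replicate block (adjusted p = 0.0882) and when genes were read from their median or brightest probe set (adjusted p = 0.132 and 0.13). Reading genes that way leaves the values of Iglv1 itself unchanged, since it has 1 probe set, and alters those of other genes. The joint call held after quantile normalization or median centring (adjusted p = 0.0495 and 0.0483). It also held with dim genes left out (0.0154) and with limma's trend and robust options (0.0441).

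Of the 2 heavy chain segments, Ighv1-72, which is known for the antibody response of C57BL/6 mice to the hapten nitrophenyl, was brightest in CD127+ LMPPs. It read 3.52 and 3.35 log2 units in Ly6D+ CLPs, 3.00 and 3.38 in Ly6D− CLPs, 5.06, 4.30 and 4.17 in CD127+ LMPPs, and 3.81, 2.65 and 3.88 in CD127− LMPPs. The lowest CD127+ LMPP array stood above every array of the other populations. The log2 difference was 1.06 ± 0.32 (SE) in CD127+ against CD127− LMPPs (limma adjusted p = 0.191), -1.32 ± 0.36 in Ly6D− CLPs against CD127+ LMPPs (limma adjusted p = 0.086) and -1.07 ± 0.36 in Ly6D+ CLPs against CD127+ LMPPs (limma adjusted p = 0.126). Its value rests on 1 probe set, and its calls turned on the arrays and settings used. Without CD127− LMPP replicate 2, the lowest of all, both differences between CLPs and CD127+ LMPPs passed limma's test (adjusted p = 0.0359 for Ly6D− CLPs and 0.0454 for Ly6D+ CLPs). With all arrays, that of Ly6D− CLPs passed with dim genes left out (limma adjusted p = 0.0408) and with limma's trend and robust options (0.0381). The other heavy chain segment, Ighv1-47, stayed between 1.16 and 2.34 log2 units on all arrays.

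The 10 kappa segments split evenly, 5 positive and 5 negative, between CD127+ and CD127− LMPPs, with a median log2 difference of 0.03. The median was 0.18 in Ly6D+ CLPs against CD127+ LMPPs and 0.11 in Ly6D+ against Ly6D− CLPs. Igkv15-103 was the brightest of them. It read 5.14 and 4.85 log2 units in Ly6D+ CLPs, 5.30 and 3.70 in Ly6D− CLPs, 5.45, 4.88 and 5.14 in CD127+ LMPPs, and 5.09, 4.40 and 5.41 in CD127− LMPPs, so that all 4 populations overlapped. Igkv4-72 differed by 0.67 ± 0.24 (SE) between CD127+ and CD127− LMPPs on the log2 scale (limma adjusted p = 0.313), with no array over the low-signal limit.

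Igkv1-133 varied more among arrays of one population than any other of the 23152 genes, with a within-group SD of 1.88 log2 units against a median of 0.21 over all genes and 0.30 over the 2319 genes that, like it, rest on 1 probe set. It read 1.27 and 5.88 log2 units in the 2 arrays of Ly6D+ CLPs, 3.14 and 4.96 in Ly6D− CLPs, 4.16, 4.84 and 1.01 in CD127+ LMPPs, and 2.27, 1.77 and 2.96 in CD127− LMPPs. The replicates of Ly6D+ CLPs alone spanned nearly the whole range of the segment. Igkv4-91 was also uneven, with 4.50, 2.66 and 4.80 log2 units in CD127− LMPPs and a within-group SD of 0.70, rank 142 among all genes.

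Igkv5-43 was the kappa segment with the most probe sets, and its 3 sets disagreed. One, numbered 17459422, read 8.07 and 7.72 log2 units in Ly6D+ CLPs, 6.91 and 7.23 in Ly6D− CLPs, 6.66, 8.04 and 6.90 in CD127+ LMPPs, and 6.87, 6.35 and 7.03 in CD127− LMPPs. It was over the low-signal limit for single probe sets, 5.04, on all 10 arrays, whereas the means of the other sets lay between 1.31 and 3.54 in every population. The segment's log2 difference of 0.62 ± 0.18 (SE) in Ly6D− CLPs against CD127+ LMPPs (limma adjusted p = 0.0963) averages over these sets, and probe set 17459422 itself differed by -0.13 ± 0.44 there (limma over all probe sets, adjusted p = 0.931). A gene value for this segment is therefore a mean of unlike signals.

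A probe set that the annotation gives to 3 kappa symbols at once changed far more than any segment read alone. Numbered 17459424, it is listed for the V segments Igkv6-23 and Igkv4-53 and for Igkj1, a joining segment of the kappa locus. It belongs to none of the 19 segments by the rule above, and it was chosen for description after its values were seen. It read 9.37 and 8.93 log2 units in Ly6D+ CLPs, 4.39 and 4.46 in Ly6D− CLPs, 8.87, 7.93 and 8.05 in CD127+ LMPPs, and 5.08, 4.86 and 4.65 in CD127− LMPPs. Ly6D+ CLPs and CD127+ LMPPs were high on all 5 arrays, while the 5 arrays of Ly6D− CLPs and CD127− LMPPs lay at 5.08 or less, around or under the limit of 5.04 for single probe sets.

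Fitted with limma beside the genes as 1 of 25173 features, the shared kappa probe set was higher by 4.72 ± 0.30 (SE) log2 units in Ly6D+ than in Ly6D− CLPs (adjusted p = 0.000193), where 0.0596% of the features were called. With arrays under the limit raised to it, this is at least 17.2-fold. It was higher by 3.42 ± 0.24 in CD127+ than in CD127− LMPPs (limma adjusted p = 0.000144, 1.32% of features called, at least 9.37-fold). It fell by 3.85 ± 0.27 log2 units in Ly6D− CLPs against CD127+ LMPPs (limma adjusted p = 0.000575, 1.77% called). Ly6D+ CLPs against CD127+ LMPPs gave 0.87 ± 0.27 (limma adjusted p = 0.112, 3.75% called), which passed without CD127+ LMPP replicate 1 (1.16, adjusted p = 0.0284). With limma over all 269751 probe sets, adjusted p was 0.04, 0.0208, 0.0543 and 0.378 in the same order, with 0.00259%, 0.0389%, 0.00111% and 0.0252% of probe sets called. There the calls between CLPs and between LMPPs were lost when any 1 of the 10 arrays was left out (adjusted p 0.0591 to 0.252 and 0.0506 to 0.135), on the compared arrays alone (0.786 and 0.139) and with the replicate number of the titles as a block (0.232 and 0.111), and the difference of Ly6D− CLPs from CD127+ LMPPs passed without Ly6D− CLP replicate 1 (adjusted p = 0.0488).

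Igkv6-23 and Igkc, parts of the same locus, did not show this pattern on their own probe sets. Set 17459422 of Igkv5-43 leaned the same way, but far more weakly. It averaged 7.89 log2 units in Ly6D+ CLPs, 7.07 in Ly6D− CLPs, 7.20 in CD127+ LMPPs and 6.75 in CD127− LMPPs. Its LMPP arrays overlapped. The other sets of Igkv5-43 averaged lower in Ly6D+ than in Ly6D− CLPs and in CD127+ than in CD127− LMPPs. The probe set annotated to Igkv6-23 alone stayed between 1.34 and 2.53 log2 units on all 10 arrays. Its mean of 1.76 lay under the median of 2.41 over probe sets of sensory receptor genes. So low a signal cannot show whether Igkv6-23 followed the pattern. Igkc, the kappa constant gene, read 5.29 and 5.25 log2 units in Ly6D+ CLPs, 5.07 and 4.76 in Ly6D− CLPs, 5.07, 3.84 and 4.76 in CD127+ LMPPs, and 4.77, 5.14 and 3.88 in CD127− LMPPs on its 1 probe set. Its log2 difference was 0.36 ± 0.42 (SE) in Ly6D+ against Ly6D− CLPs (limma adjusted p = 0.852) and -0.04 ± 0.34 in CD127+ against CD127− LMPPs (limma adjusted p = 0.979). Which of the 3 annotated symbols, or which other transcript, the shared probe set reads was not tested.

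**Figure D3:**
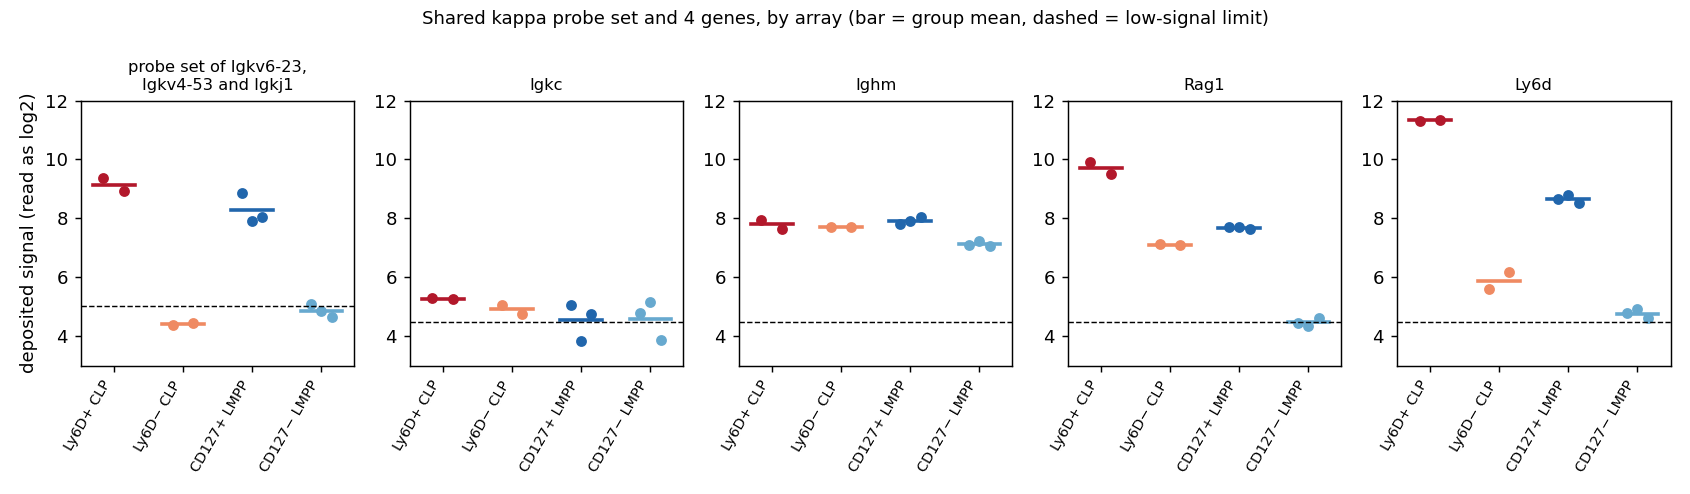
Signal by array (y axis, deposited signal read as log2; 1 dot per array, bar at the group mean, dashed line at the low-signal limit for probe sets in the first panel and for genes in the others) of the probe set shared by Igkv6-23, Igkv4-53 and Igkj1, and of Igkc, Ighm, Rag1 and Ly6d. The shared probe set reads 8.93 and 9.37 in Ly6D+ CLPs against 4.39 and 4.46 in Ly6D− CLPs, and at least 7.93 in CD127+ LMPPs against at most 5.08 in CD127− LMPPs.

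T cell receptor V segments were among the brighter members. By the mean of its 4 probe sets, Trav12-2 was the brightest of the 19 segments and ranged from 4.99 to 5.59 log2 units. It averaged 5.49 in Ly6D+ CLPs, 5.19 in Ly6D− CLPs, 5.31 in CD127+ LMPPs and 5.17 in CD127− LMPPs. Its log2 difference between Ly6D+ and Ly6D− CLPs was 0.30 ± 0.18 (SE, limma adjusted p = 0.659). Of its 4 probe sets, one pair held identical values on every array, between 6.00 and 6.68 log2 units, and was therefore 1 measurement. That measurement counts double in the mean, and the rank of the segment depends on it. The other sets averaged 3.70 to 4.66 log2 units in the 4 populations.

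Trav9d-3 read 5.06 and 4.88 log2 units in Ly6D+ CLPs, 5.10 and 4.95 in Ly6D− CLPs, 4.57, 4.81 and 4.67 in CD127+ LMPPs, and 4.51, 4.51 and 4.39 in CD127− LMPPs, and no CLP array overlapped an LMPP array. That split coincides with the separate runs of sample numbers. The log2 difference was 0.34 ± 0.15 (SE) in Ly6D− CLPs against CD127+ LMPPs (limma adjusted p = 0.247) and 0.28 ± 0.15 in Ly6D+ CLPs against CD127+ LMPPs (limma adjusted p = 0.325), neither of which passed, and the wider gap between CLPs and CD127− LMPPs was not tested. The joint test of the 4 populations by limma gave an adjusted p of 0.0734, and it passed with dim genes left out (adjusted p = 0.0243).

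The 12 probe sets annotated to Trav9d-3 ranged widely, and 4 of them formed 2 pairs with identical values. The steepest was 17300250, which read 6.23 and 6.44 log2 units in Ly6D+ CLPs, 5.26 and 7.36 in Ly6D− CLPs, 4.31, 5.36 and 5.08 in CD127+ LMPPs, and 4.16, 3.62 and 3.76 in CD127− LMPPs. All CD127− LMPP arrays lay under all others. Over all probe sets its log2 difference was 1.42 ± 0.58 (SE) in Ly6D+ CLPs against CD127+ LMPPs (limma adjusted p = 0.388) and 1.07 ± 0.52 in CD127+ against CD127− LMPPs (limma adjusted p = 0.827). Set 17300249, the next by number, averaged 6.81 log2 units in Ly6D+ CLPs, 6.85 in Ly6D− CLPs, 6.32 in CD127+ LMPPs and 5.69 in CD127− LMPPs, whereas set 17300182 averaged 2.59 or less in every population. None of the 38 probe sets was called in any comparison at this level.

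**Figure D4:**
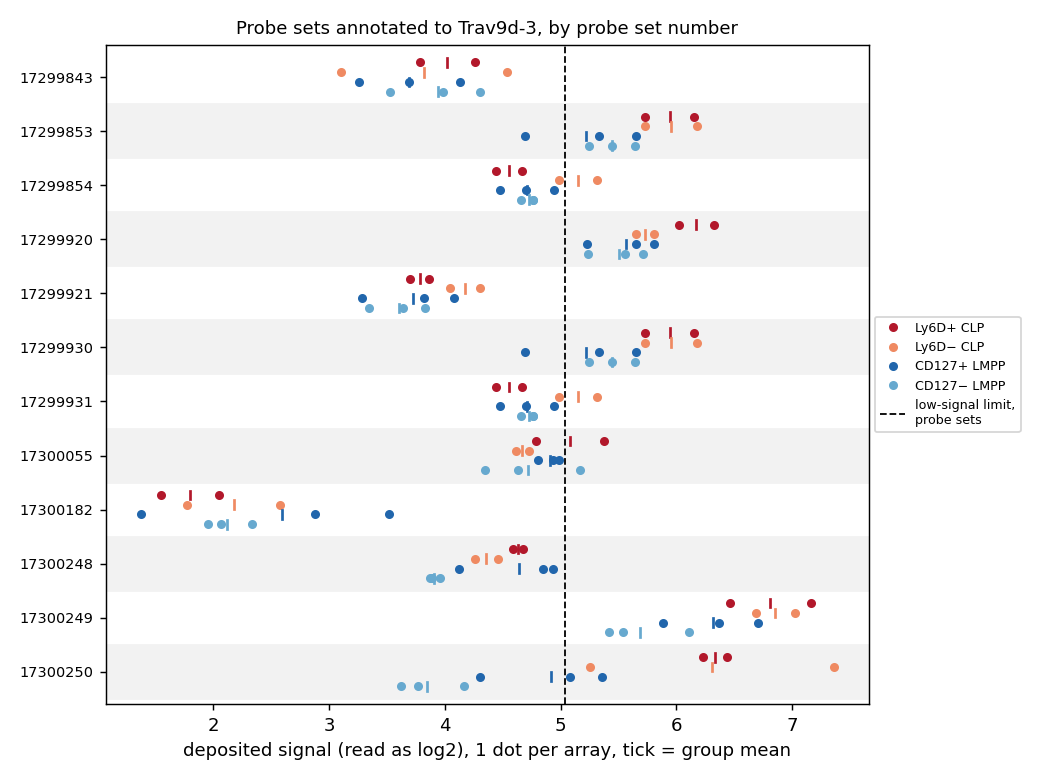
The 12 probe sets annotated to Trav9d-3 (rows, by probe set number) on each array (x axis, deposited signal read as log2; tick at the group mean), with Ly6D+ CLPs, Ly6D− CLPs, CD127+ LMPPs and CD127− LMPPs from top to bottom within each set. The dashed line is the low-signal limit for probe sets of 5.04, and set 17300250 runs from 3.62 in a CD127− LMPP array to 7.36 in a Ly6D− CLP array.

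The other alpha and beta segments had no group mean over the low-signal limit. Trav3-4 had the lowest unadjusted p-value of the 19 segments in any of the comparisons by limma, with 1.06 and 1.16 log2 units in Ly6D+ CLPs against 2.24 and 2.74 in Ly6D− CLPs, all under the median of the sensory receptor genes but for 1 array. The log2 difference was -1.38 ± 0.31 (SE, limma adjusted p = 0.178). Trav14d-3-dv8, which by its name can join either the alpha or the delta chain, ranged from 3.55 to 5.08 log2 units, and Trav7-4 from 3.00 to 4.03. The Trav7-4 value averages 3 unlike probe sets: 17299799 averaged 4.90 to 5.33 log2 units in the 4 populations and passed the limit for single probe sets on 7 of 10 arrays, while the means of the other sets lay between 1.74 and 3.25. Trbv13-2, a beta segment known from invariant NKT cells, read 4.13 and 2.94 log2 units in Ly6D+ CLPs, 3.44 and 4.30 in Ly6D− CLPs, 3.76, 4.09 and 4.02 in CD127+ LMPPs, and 3.92, 2.74 and 3.77 in CD127− LMPPs. It stayed under the low-signal limit on all 10 arrays.

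Genes that act with the V segments did change between the same populations. For this list and those that follow, the share of all genes called was 1.47% between LMPPs and 0.0993% between CLPs. It was 2.06% in Ly6D− CLPs and 4.03% in Ly6D+ CLPs, each against CD127+ LMPPs. Of 10 recombination and surrogate light chain genes, 4 were higher in CD127+ than in CD127− LMPPs: Rag1 and Rag2, the recombinase genes, Dntt, the enzyme that adds bases at the joints, and Vpreb2, a surrogate light chain. Their log2 differences were 3.22 ± 0.14 (SE, limma adjusted p = 1.03e-06) for Rag1, 1.96 ± 0.22 (limma adjusted p = 0.00116) for Rag2, 1.34 ± 0.15 (limma adjusted p = 0.00116) for Dntt and 0.99 ± 0.15 (limma adjusted p = 0.00663) for Vpreb2. Rag1 and Vpreb2 were also the 2 called between Ly6D+ and Ly6D− CLPs, by 2.60 ± 0.17 and 2.46 ± 0.18 log2 units (limma adjusted p = 0.00013 and 0.000225). In Ly6D+ CLPs against CD127+ LMPPs 4 were higher, namely Rag1, Vpreb2, Igll1 and Cd79a, of which Igll1 and Cd79a lost the call without Ly6D+ CLP replicate 1 (adjusted p = 0.127 and 0.0703), and Igll1 also without Ly6D+ CLP replicate 2 or CD127+ LMPP replicate 1 or 3 (adjusted p = 0.124, 0.0679 and 0.0667), with the median probe set (0.0631), on the compared arrays alone (0.0558) and with the replicate block (0.052). Vpreb2 was the 1 gene lower in Ly6D− CLPs than in CD127+ LMPPs, by -0.80 ± 0.16 log2 units (limma adjusted p = 0.035), a call lost without any 1 array of these populations or CD127− LMPP replicate 1 (adjusted p 0.0565 to 0.149), on the compared arrays alone (0.0977) and with the replicate block (0.0941). Each Vpreb2 call also ended when the gene was read from its brightest probe set alone (adjusted p = 0.461 to 0.943), as did those of Rag2 and Dntt (adjusted p = 0.0624 and 0.0573). In a fit of the CLP arrays alone the calls of Rag1 and Vpreb2 between CLPs were lost (adjusted p = 0.0888 for both).

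Rag1 ran beside the shared kappa probe set only in part. It read 9.90 and 9.51 log2 units in Ly6D+ CLPs, 7.13 and 7.09 in Ly6D− CLPs, 7.69, 7.72 and 7.65 in CD127+ LMPPs, and 4.45, 4.35 and 4.60 in CD127− LMPPs. Ly6D− CLPs thus held Rag1 well over the low-signal limit while the shared kappa probe set lay under its own limit there. Ly6d, the gene of the marker by which CLPs were sorted, was likewise high in Ly6D+ CLPs and CD127+ LMPPs, with 11.31 and 11.35 log2 units in Ly6D+ CLPs, 5.59 and 6.17 in Ly6D− CLPs, 8.67, 8.81 and 8.53 in CD127+ LMPPs, and 4.77, 4.91 and 4.61 in CD127− LMPPs.

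Among 6 constant-region and joining symbols, 1 was called, Ighm, the mu heavy chain constant gene, in CD127+ against CD127− LMPPs. It read 7.82, 7.91 and 8.04 log2 units in CD127+ LMPPs and 7.08, 7.24 and 7.07 in CD127− LMPPs, a difference of 0.79 ± 0.13 (SE, limma adjusted p = 0.0147). The call was lost without CD127− LMPP replicate 1 or 3 or CD127+ LMPP replicate 2 or 3 (adjusted p 0.0531 to 0.0783) and with the median or the brightest probe set (adjusted p = 0.168 and 0.727), the brightest giving a difference of 0.29. The symbol pattern behind this list also takes in Ighmbp2, a helicase gene, and Tcrg-V5 and Tcrg-V6, older names of gamma chain V segments. None of the 6 was called in the other 3 comparisons, where 1, 0 and 2 had an unadjusted p under 0.05 by limma. Of all genes, 18%, 19.1% and 9.1% did.

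Of 19 measured regulators of receptor loci, Ebf1, a transcription factor of early B lineage cells, was the 1 called in CD127+ against CD127− LMPPs (2.57 ± 0.16 SE, limma adjusted p = 2.66e-05) and in Ly6D+ against Ly6D− CLPs (2.55 ± 0.20, limma adjusted p = 0.000292; 0.0888 in a fit of the CLP arrays alone). In Ly6D+ CLPs against CD127+ LMPPs 5 were higher, namely Ebf1 by 2.13 log2 units, Pou2af1 by 1.57, Irf4 by 1.10, Pax5 by 0.85 and Brwd1 by 0.70, the last named because the count was small. Without Ly6D+ CLP replicate 1, Pou2af1, Irf4 and Pax5 lost the call (adjusted p = 0.0763, 0.125 and 0.153). Without Ly6D+ CLP replicate 2 or CD127+ LMPP replicate 1 or 3, Pou2af1 (adjusted p = 0.151, 0.0622 and 0.0616) and Pax5 (0.101, 0.0686 and 0.058) did, and Pax5 turned to -0.48 when read from its brightest probe set alone (adjusted p = 0.42). The Pou2af1 call also ended with the median probe set, the brightest probe set and the replicate block (adjusted p = 0.14, 0.0787 and 0.0503), and that of Irf4 with the median probe set (0.0666). Tcf7, a T lineage factor, was the 1 higher in Ly6D− CLPs than in CD127+ LMPPs (1.00 ± 0.18 SE, limma adjusted p = 0.0255), a call lost without either Ly6D− CLP array or CD127+ LMPP replicate 1 or 2 (adjusted p 0.0771 to 0.0911). Read from its brightest probe set, Tcf7 differed by 0.058 log2 units (adjusted p = 0.938), and the call was also lost with the median probe set, on the compared arrays alone and with the replicate block (adjusted p = 0.0502, 0.0839 and 0.0527).

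Many markers of cells that carry rearranged receptors were dim, and some were not. The mean log2 level of 11 mature B and plasma cell genes was 4.97 on both arrays of Ly6D+ CLPs, 4.79 and 4.82 in Ly6D− CLPs, 4.68 to 4.79 in CD127+ LMPPs, and 4.46 to 4.58 in CD127− LMPPs. It was higher in Ly6D+ than in Ly6D− CLPs and in CD127+ than in CD127− LMPPs, as Iglv1 and the shared kappa probe set were. The arrays of Ly6D− CLPs and CD127+ LMPPs overlapped in this mean, and did not for Iglv1 and the shared probe set. Whether the marker level bears on those readings was not tested. Of the 11, 6 passed the low-signal limit in Ly6D+ CLPs and 4 in each other population. Cd37, Xbp1, Sdc1 and Fcrl1 passed it on all 10 arrays. Ms4a1, the B cell antigen CD20, read 2.95 to 3.42 log2 units and Igj, the joining chain of secreted antibody, 2.37 to 3.86, both under the limit on all arrays. One of the 11, Fcrl1, was called, in CD127+ against CD127− LMPPs (0.88 ± 0.16 SE, limma adjusted p = 0.0192), and not without CD127− LMPP replicate 1 or any CD127+ LMPP array (adjusted p 0.0555 to 0.0975) or with the brightest probe set (0.64, adjusted p = 0.497).

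The 12 measured T cell genes had a mean log2 level of 4.42 to 4.56 in Ly6D+ CLPs and 4.33 to 4.36 in Ly6D− CLPs. It was 4.23 to 4.40 in CD127+ LMPPs and 3.99 to 4.11 in CD127− LMPPs. In each population 3 of them, Cd5, Cd6 and Cd28, had a mean over the limit. Cd5 averaged 6.64 log2 units in Ly6D+ CLPs, 6.62 in Ly6D− CLPs, 5.97 in CD127+ LMPPs and 5.31 in CD127− LMPPs. Cd28 and Cd6, co-receptors of T cells, were higher in CD127+ than in CD127− LMPPs, by 1.01 ± 0.13 and 1.04 ± 0.18 log2 units (SE, limma adjusted p = 0.00308 and 0.0157), and Cd6 lost the call without CD127− LMPP replicate 1 or CD127+ LMPP replicate 1 or 3 (adjusted p 0.0649 to 0.0731) and with the median or the brightest probe set (adjusted p = 0.0911 and 0.255). The group means of Cd3e, Cd3d, Cd3g, Cd4 and Cd8a, which define T cells, stayed under the limit in every population. Of 7 gamma delta T and NK cell genes none was called in any comparison by limma, and 1, 0, 2 and 1 had an unadjusted p under 0.05. Of all genes, 11.1%, 18%, 19.1% and 9.1% did. What part mature lymphocytes have in the signal of the V segments was not tested. Il7r, the gene of CD127, averaged 9.64 and 9.31 log2 units in Ly6D+ and Ly6D− CLPs, 9.10 in CD127+ LMPPs and 4.32 in CD127− LMPPs, and Kit averaged 7.05, 7.62, 8.33 and 8.70 in the same order. Ly6a, the gene of Sca-1, did not follow the gates throughout: it averaged 6.30 and 5.51 log2 units in Ly6D+ and Ly6D− CLPs, gated as Sca-1 low, 7.02 in CD127+ LMPPs and 5.82 in CD127− LMPPs, the last gated as Sca-1 high.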

How the data were processed

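The deposited table holds 1 value per probe set for each of 10 Affymetrix arrays. These log2 values were made by the authors with Affymetrix Power Tools, per the submitters' processing notes. Not given in the sources used here are the summary method, normalization and build. The log base was read from the range of 0.20433 to 14.79009. Quartiles differed by 0.125 at most between arrays, so no further normalization was applied.

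A gene value is the mean over its single-symbol probe sets, which numbered 233753 for 23152 genes. Sets with several symbols (5106) or none (30892) entered no gene value. All 19 segments matched the RefSeq gene table for GRCm38.p6, used for names alone, which lists 526 segments by the same patterns.

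Group means were compared with limma 3.58.1 (default empirical Bayes, no covariates, all 10 arrays in 1 fit) in R 4.3.3, with Benjamini-Hochberg adjustment over all genes at 0.05. Errors of differences are standard errors. Genes outside the 19 were named as list members past the threshold (at most 4 per list and comparison) or as the largest difference, and the segments as the 3 brightest or the most different of each locus. Igkv4-72, the dimmest segments by name, the marker genes below the limit and single probe sets were named after their values were seen. The 19 members, the lists and the tests were chosen with earlier results of these data known. The shared kappa probe set was fitted in 2 added ways, with 1 more feature per set of several symbols and over all probe sets.

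The fits were tested on simulated data with known changes. The number of arrays limits the precision. Results were recomputed without each array in turn, with a replicate block, on the compared arrays only, with limma's trend and robust options, without dim genes, from the brightest or the median probe set, and after median centring or quantile normalization. Tables for figures were read with pandas 2.3.3 and numpy 2.4.6 and drawn with matplotlib 3.10.9 (Python 3.11.15).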

Additional observations from a re-analysis of the deposited data

How the results depend on the processing

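The count of 0 V segments called between CD127+ and CD127− LMPPs, and between the CLP populations, held under each alternative run. For Ly6D− CLPs against CD127+ LMPPs it became 2 (Ighv1-72 and Iglv1) with dim genes left out and 1 (Ighv1-72) with trend and robust settings, and ranged from 0 to 1 with single arrays left out, as it did for Ly6D+ CLPs against CD127+ LMPPs (Ighv1-72 in both, without CD127− LMPP replicate 2). In the joint test of 4 populations it was 0 with the median probe set, the brightest probe set and the replicate block. It was 3 with dim genes left out (Ighv1-72, Iglv1 and Trav9d-3) and 3 with trend and robust settings (Ighv1-72, Iglv1 and Trav3-4). With single arrays left out it was 0 to 1 (Ighv1-72 without CD127− LMPP replicate 2, Trav3-4 without CD127+ LMPP replicate 1, Iglv1 without Ly6D− CLP replicate 2). Leaving out dim genes keeps 5 segments, whose median log2 difference was -0.62 in Ly6D− CLPs against CD127+ LMPPs and 0.30 in Ly6D+ against Ly6D− CLPs. Over all genes, calls between LMPPs were 160 with the median and 88 with the brightest probe set, 528 with dim genes left out and 581 with trend and robust settings, and 165 to 340 without single arrays. For Ly6D− CLPs against CD127+ LMPPs they were 105 with the median probe set, 1245 with dim genes left out, 1398 with trend and robust settings, 22 for the compared arrays alone, 104 with the replicate block, and 76 to 438 without single arrays. For Ly6D+ CLPs against CD127+ LMPPs they were 429, 1924 and 1954 under the median probe set, the dim filter and trend and robust settings, 553 with the replicate block, and 194 to 1016 without single arrays. Between CLPs they were 11 with the median and 11 with the brightest probe set, 67 with dim genes left out, 78 with trend and robust settings, 1 for the compared arrays alone, 8 with the replicate block, and 6 to 27 without single arrays. The joint test called 1042, 3357 and 3516 genes with the median probe set, the dim filter and trend and robust settings, 1288 with the replicate block, and 1199 to 2028 without single arrays. Pax5 in Ly6D+ CLPs against CD127+ LMPPs reversed to -0.48 with the brightest probe set. The causes of these changes between settings were not tested. Arrays of the same number in the titles correlated by -0.01 to 0.04 between LMPPs, by 0.03 between CLPs and by -0.04 to 0.13 between CLPs and LMPPs. With 2 or 3 arrays a group, these values cannot tell whether the numbers are a pairing. No probe set carried several symbols that were all segments of 1 locus, so adding such sets gave no value. The signal of 14 of the 19 segments, as means over their probe sets, was over the low-signal limit in no population.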

Other observations

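Another 4 V segments are on the arrays under older symbols that the choice by name did not take: Igh-VS107 (now Ighv7-3, heavy chain), A430107P09Rik (now Trav3-3, alpha chain), and Tcrg-V5 and Tcrg-V6 (now Trgv5 and Trgv6, gamma chain). None of the 4 had a group mean over the low-signal limit, and none was called by limma in any of the 4 comparisons. At an unadjusted p under 0.05 they numbered 0, 1, 2 and 2, beside 11.1%, 18%, 19.1% and 9.1% of all genes. The largest difference was that of Igh-VS107, which read 3.39 and 2.99 log2 units in Ly6D+ CLPs against 4.22 and 3.98 in Ly6D− CLPs (-0.91 ± 0.29 SE, limma adjusted p = 0.365). Tcrg-V5 read 3.03 and 2.81 log2 units in Ly6D+ CLPs against 3.93 and 3.38 in Ly6D− CLPs (-0.73 ± 0.27 SE, limma adjusted p = 0.457).

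A second probe set with several symbols, annotated to A430107P09Rik and Trav3n-3, ranged from 2.45 to 3.57 log2 units. It differed by 0.60 ± 0.18 (SE) between CD127+ and CD127− LMPPs (limma adjusted p = 0.199).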
